A study of Mus musculus with 20 samples.

Results

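The crypt stem and progenitor genes described here are Lgr5, Ascl2, Smoc2, Sox9, Cd44 and Ephb2, a set of 6 genes known from the stem cell and progenitor zone of the intestinal crypt, taken by symbol. All 6 were rows of every count table, out of 46329 gene rows, but together they held few reads. Only 2 of the 6, Sox9 and Ephb2, passed the filter on low counts that 7119 rows passed, and Lgr5, Ascl2, Smoc2 and Cd44 had too few counts for the model fit. The study asked what ERBB2 does in colorectal tumors of ApcMin/+ mice, in which a mutated Apc allele predisposes to intestinal tumors, and sequenced RNA of tumors and of the adjacent tissue outside them. All groups were C57BL/6J mice aged 100 days that carried ApcMin/+ and the floxed Erbb2f/f allele. The Erbb2-deficient tumor group and the Erbb2-deficient adjacent group also carried Tg(Vil1-cre), a cre transgene under the villin promoter that acts in intestinal epithelial cells and not in the stroma, and the control tumor group and the control adjacent group were littermates without cre. Each of the 4 groups held 5 libraries, labelled as biological replicates, and the genotypes differ by the presence of cre as well as by Erbb2.

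Crypt stem cells are kept by Wnt signals, which R-spondins amplify through LGR receptors, and Apc is the part of the machinery that degrades the Wnt effector beta-catenin. Lgr5 is the R-spondin receptor that marks the stem cells at the crypt base, Ascl2 is a transcription factor that stem cells need, and Smoc2 is a secreted matricellular protein enriched in them. Sox9 is a transcription factor of stem and progenitor cells, Cd44 is a hyaluronan receptor of crypt cells, and Ephb2 is a receptor tyrosine kinase that positions crypt cells along the crypt axis. Several of them are known as Wnt target genes in the intestine.

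Reads on gene rows numbered 1071737 to 1944309 per library (median 1258396), which was 2.51% to 3.45% of the reads in a file. The row of Gapdh, a gene whose mRNA is abundant in most cells, averaged 3.85 counts, while the row of ND6, a mitochondrial gene on the strand opposite most other mitochondrial protein genes, averaged 67859. Libraries were made with a stranded kit, and the strand setting of the counting is not given in the sources used here, so a row may hold reads from the strand opposite its gene, and the values below are levels of the rows and cannot be read as levels of the mRNAs. The row of Erbb2 had 6, 8, 4, 11 and 1 counts in Erbb2-deficient tumors and 10, 1, 6, 5 and 4 in control tumors, and 22, 12, 22, 12 and 5 in Erbb2-deficient adjacent tissue and 11, 9, 4, 3 and 12 in control adjacent tissue, so its mean was not lower in either Erbb2-deficient group. The row does not check the labels, since Erbb2 lies opposite an exon of Mien1, whose reads it may hold. One library stood apart most clearly. Control tumor 2 had a median Spearman correlation of 0.636 with the other control tumors, against 0.82 to 0.926 for the other libraries with theirs, and its rows of Epcam, Krt8, Krt18, Muc2 and Cdh1 were at 0, whereas Epcam had 40 to 200 counts elsewhere. The results that rest on control tumor 2 are given with and without it. Control tumor 3 was closer to adjacent tissue in some markers. Its goblet cell genes summed to 617 CPM, against 0 to 65.7 in the other control tumors and 213 to 796 in control adjacent tissue. Its colonocyte genes summed to 246 CPM, against 6.35 to 41.9 and 221 to 294. Some values without both libraries are given below.

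The genome position of the members matters for reading the rows, since reads of a neighbour on the other strand can enter them. In GENCODE M21 the members lie on chromosomes 10 (Lgr5), 7 (Ascl2), 17 (Smoc2), 11 (Sox9), 2 (Cd44) and 4 (Ephb2), and no exon of these 6 overlaps an opposite-strand exon of a different gene. Opposite-strand genes lie inside the span of some of them: A930009A15Rik within 1 intron of Lgr5, 4930474M22Rik within 2 introns of Smoc2, and Gm52708 inside the span of Ephb2. That annotation is of GRCm38, another build than the mm39 named in the submitters' processing notes, so it was used for names and neighbourhood only. RefSeq promoters, windows of 300 bases from 250 before to 50 after the start, were held for 3 members. They are shown, 5′ to 3′ on the gene's strand, because the members are known Wnt targets and their rows were higher in tumors on average, and capitals mark the 50 bases from the annotated start onward. Build GRCm38.p6 gives Ascl2 at chr7:142969215-142969514, Cd44 at chr2:102901616-102901915 and Ephb2 at chr4:136835963-136836262, all on the minus strand.
Ascl2: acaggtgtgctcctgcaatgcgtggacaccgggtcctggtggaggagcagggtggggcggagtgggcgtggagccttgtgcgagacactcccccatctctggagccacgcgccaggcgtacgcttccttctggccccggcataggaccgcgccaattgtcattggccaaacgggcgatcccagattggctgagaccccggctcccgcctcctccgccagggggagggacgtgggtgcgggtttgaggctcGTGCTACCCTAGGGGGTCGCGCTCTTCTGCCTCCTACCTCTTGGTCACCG
Cd44: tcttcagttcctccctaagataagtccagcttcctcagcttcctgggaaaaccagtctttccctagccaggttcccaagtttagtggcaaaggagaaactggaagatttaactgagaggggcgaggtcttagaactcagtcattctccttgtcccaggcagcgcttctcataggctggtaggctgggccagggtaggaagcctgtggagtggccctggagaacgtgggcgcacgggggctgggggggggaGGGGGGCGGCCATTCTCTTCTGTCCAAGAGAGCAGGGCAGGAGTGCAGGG
Ephb2: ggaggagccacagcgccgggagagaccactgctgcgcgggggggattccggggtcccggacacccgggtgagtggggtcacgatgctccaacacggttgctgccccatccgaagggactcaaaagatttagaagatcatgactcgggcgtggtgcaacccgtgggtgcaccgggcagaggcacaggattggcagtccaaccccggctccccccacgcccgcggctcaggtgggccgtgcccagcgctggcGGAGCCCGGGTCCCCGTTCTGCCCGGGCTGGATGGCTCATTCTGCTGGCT
The core of the TCF/LEF motif, CTTTGA on either strand (TCAAAG on the other), was in 0 of the 3 windows, and 16% of the 32851 RefSeq windows hold it. The windows were rich in G and C, at 67% for Ascl2, 58% for Cd44 and 68.7% for Ephb2, against a median of 52.7% over all windows. No match says only that these letters are not in these windows.

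The start of 4930474M22Rik, the row opposite Smoc2 whose counts differed most clearly, lies at chr17:14398893-14399192 on the minus strand (GRCm38.p6). It is shown because the window overlaps Smoc2 sequence on the other strand. Capitals mark the 166 bases, positions 43 to 208 of the window, that GENCODE M21 annotates on the other strand as an exon of a non-coding Smoc2 transcript.
4930474M22Rik: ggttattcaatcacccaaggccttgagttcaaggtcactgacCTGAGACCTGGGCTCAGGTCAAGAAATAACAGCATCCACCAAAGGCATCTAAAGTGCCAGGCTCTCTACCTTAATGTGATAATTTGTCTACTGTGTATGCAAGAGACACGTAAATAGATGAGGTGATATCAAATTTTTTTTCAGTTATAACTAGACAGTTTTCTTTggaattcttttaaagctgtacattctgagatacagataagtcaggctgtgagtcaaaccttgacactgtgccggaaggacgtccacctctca

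Across all 20 libraries the rows held 274 counts for Sox9, 183 for Ephb2, 99 for Smoc2, 64 for Cd44, 39 for Ascl2 and 20 for Lgr5. Per length of annotated exon, the level was 2.57 CPM (counts scaled to library size) per kilobase for Sox9, 0.925 for Ascl2, 0.567 for Ephb2, 0.542 for Smoc2, 0.363 for Cd44 and 0.0749 for Lgr5. A single zero in these tables is weak evidence: a count of 0 allows up to 3 counts, which is 1.75 to 2.96 CPM depending on the library, and covers counting error only.

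In Erbb2-deficient mice the mean CPM was higher in tumors than in adjacent tissue for all 6 members, and in control mice for 5 of 6, the exception being Lgr5. Mean CPM was higher in tumors for 45.7% of rows outside the filter that had at least 20 counts in Erbb2-deficient mice and for 52.9% in control mice, and for 47.2% and 53.6% of the rows that passed it. None of the 2 members that could be tested passed the threshold of an adjusted p of 0.05 in edgeR's quasi-likelihood test, while 13% of the 7119 rows were called higher in tumors of Erbb2-deficient mice and 10.7% in tumors of control mice. Of the 4 members outside the filter, all 4 had an exact two-sided permutation p under 0.05 in Erbb2-deficient mice and 2 of 4 in control mice, each with the higher mean in tumors and none lower. By the same rule 9.58% and 5.04% of 8699 rows outside the filter with at least 20 counts were higher in tumors, and 12.1% and 7.15% were lower. These are raw p-values of 16 tests, and 0.00794 is the smallest that 5 libraries against 5 can give. In bulk tissue, a larger share of crypt-like cells and more RNA per such cell cannot be told apart.

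**Figure D1:**
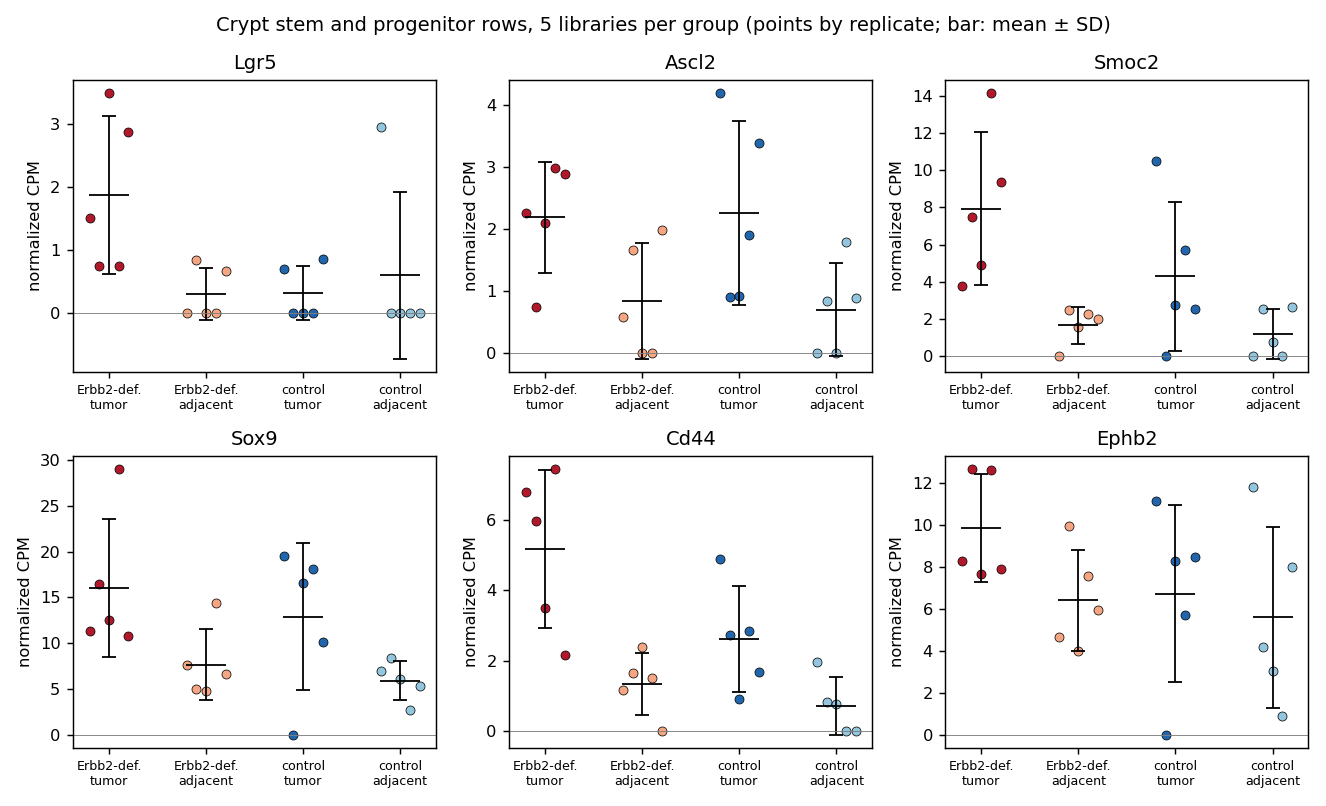
Library-size normalized counts (CPM) of the 6 members in each library, with 1 panel per gene, points for the 5 libraries of a group and bars for the mean ± SD. The Erbb2-deficient tumors lie above all Erbb2-deficient adjacent libraries for Smoc2, and control tumor 2 is at 0 for Lgr5, Smoc2, Sox9 and Ephb2.

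Lgr5, the stem cell receptor, was close to absent from the tables. It had 2, 1, 5, 1 and 4 counts in Erbb2-deficient tumors and 0, 1, 0, 0 and 1 in Erbb2-deficient adjacent tissue. Control mice had 1, 0, 0, 0 and 1 counts in tumors and 3, 0, 0, 0 and 0 in adjacent tissue. Every Erbb2-deficient tumor thus had at least 1 count, but the groups overlapped in each comparison. The mean was 1.88 ± 1.26 CPM in Erbb2-deficient tumors and 0.299 ± 0.413 CPM in Erbb2-deficient adjacent tissue (SD, n = 5 each, exact permutation p = 0.0317). Without Erbb2-deficient adjacent 1, 3 or 4 that p was 0.0635. In control mice it was 0.309 ± 0.426 CPM in tumors and 0.592 ± 1.32 CPM in adjacent tissue (SD, n = 5 each, exact permutation p = 1). Lgr5 was also the member whose tumors differed by genotype at a raw p under 0.05 (exact permutation p = 0.0317). The Erbb2-deficient tumors held 13 counts in all, with an exact 95% Poisson interval of 6.92 to 22.2, and the control tumors 2 counts, with an interval of 0.242 to 7.22, both for counting error only. Leaving out control tumor 2, the exact permutation p of that comparison was 0.0635, without control tumor 3 it was 0.0556 and without control tumor 4 it was 0.0635. For the genotype comparison of tumors, 1 of the 4 members outside the filter was under 0.05, beside 5.95% of the 8699 rows that were higher in Erbb2-deficient tumors.

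Ascl2, the stem cell transcription factor, had similar levels in the tumors of both genotypes. It had 3, 1, 3, 4 and 4 counts in Erbb2-deficient tumors and 1, 2, 0, 0 and 3 in Erbb2-deficient adjacent tissue. Control tumors had 6, 1, 1, 2 and 4 counts and control adjacent tissue 0, 1, 0, 2 and 1. Tumors reached the higher counts in both genotypes, with overlap between the groups. The means were 2.19 ± 0.894 CPM in Erbb2-deficient tumors and 0.846 ± 0.931 CPM in Erbb2-deficient adjacent tissue (SD, n = 5 each, exact permutation p = 0.0476). They were 2.26 ± 1.48 CPM in control tumors and 0.704 ± 0.746 CPM in control adjacent tissue (SD, n = 5 each, exact permutation p = 0.0397). Neither p is stable to the libraries kept: with 1 library left out the exact permutation p was 0.0952 without Erbb2-deficient tumor 4 and 0.111 without control adjacent 1. Between the genotypes, tumors differed by -0.0683 CPM (exact permutation p = 0.913) and adjacent tissue by 0.141 CPM (exact permutation p = 0.889).

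Smoc2, the secreted stem cell protein, was the member with the clearest separation. It had 5, 10, 7, 19 and 13 counts in Erbb2-deficient tumors and 0, 3, 2, 3 and 3 in Erbb2-deficient adjacent tissue, so the lowest tumor lay above the highest adjacent library. It had 15, 0, 3, 6 and 3 counts in control tumors and 0, 3, 1, 0 and 3 in control adjacent tissue, where the groups overlapped. The mean was 7.93 ± 4.10 CPM in Erbb2-deficient tumors and 1.67 ± 0.991 CPM in Erbb2-deficient adjacent tissue (SD, n = 5 each), a ratio of 4.76 (exact permutation p = 0.00794, the smallest possible). In control mice it was 4.30 ± 4.0 CPM in tumors and 1.19 ± 1.32 CPM in adjacent tissue (SD, n = 5 each), a ratio of 3.61 (exact permutation p = 0.127; 0.0159 without control tumor 2 and 0.0357 without control tumors 2 and 3). All 5 libraries of the Erbb2-deficient tumors lay above all 5 adjacent ones in 11.9% of the tested rows. Smoc2 is not one of those rows, and the share was not taken over rows outside the filter. No member separated in this way in control mice (3.96% of tested rows did), between the tumors (0.927%) or between the adjacent groups (0.73%).

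Smoc2 sat at the edge of the count filter, so whether it was tested depended on the libraries kept. With no filter it was called in Erbb2-deficient mice, at 2.23 ± 0.65 on the log2 scale (SE, adjusted p = 0.01427 in edgeR's quasi-likelihood test), where 4.06% of 27672 rows were called higher, and no member was called in control mice, where 2.29% were. DESeq2 also called it there, with a log2 fold change of 2.30 (DESeq2 adjusted p = 0.0236), where 8.56% of rows with an adjusted p were called higher. With 1 of the 20 libraries left out in turn, Smoc2 passed the filter in 16 of 20 fits, which then need fewer libraries above the minimum, and it was called in Erbb2-deficient mice in 15 of those 16, with log2 fold changes of 1.90 to 2.43 and edgeR adjusted p from 0.009162 to 0.06271. The exception left out Erbb2-deficient adjacent 1. Smoc2 entered these fits through tumors alone, since the libraries with at least 10 counts were Erbb2-deficient tumors 2, 4 and 5 and control tumor 1 and it dropped out when any of these 4 was left out. The calls are therefore conditional on high tumor values and lend no support of their own. Without control tumor 2, its log2 fold change was 2.26 ± 0.65 in Erbb2-deficient mice (SE, edgeR adjusted p = 0.009162) and 2.08 ± 0.76 in control mice (SE, edgeR adjusted p = 0.04627). In the same fit 16.9% and 12.9% of 7516 rows were called higher in tumors of Erbb2-deficient and of control mice. In control mice it was called in that fit alone of the 16 it entered.

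Sox9, the progenitor transcription factor, had the highest counts of the members. It had 15, 22, 18, 39 and 15 counts in Erbb2-deficient tumors and 13, 6, 6, 19 and 10 in Erbb2-deficient adjacent tissue. Control tumors had 28, 0, 18, 19 and 12 counts and control adjacent tissue 7, 10, 8, 3 and 6. Apart from control tumor 2, every control tumor lay above every control adjacent library, while in Erbb2-deficient mice Erbb2-deficient adjacent 4 lay among the tumors. How many other rows separate in control mice without control tumor 2 was not computed. The mean was 16.0 ± 7.59 CPM in Erbb2-deficient tumors and 7.66 ± 3.93 CPM in Erbb2-deficient adjacent tissue (SD, n = 5 each), with a log2 fold change estimated at 1.05 ± 0.54 (SE, adjusted p from edgeR = 0.1495). It was 12.9 ± 8.04 CPM in control tumors and 5.89 ± 2.12 CPM in control adjacent tissue (SD, n = 5 each), with a log2 fold change estimated at 1.12 ± 0.57 (SE, adjusted p from edgeR = 0.1639). The difference between these 2 changes was -0.07 ± 0.75 on the log2 scale (SE, edgeR adjusted p = 1).

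The call on Sox9 depended on control tumor 2. Without it, edgeR called Sox9 higher in tumors of both genotypes, with a log2 fold change of 1.07 ± 0.36 in Erbb2-deficient mice (SE, adjusted p = 0.02546) and 1.42 ± 0.40 in control mice (SE, adjusted p = 0.01189). That fit called 16.9% and 12.9% of 7516 rows higher in tumors of Erbb2-deficient and of control mice. The 4 other control tumors averaged 16.1 ± 4.13 CPM (SD, n = 4). A fit on the 10 Erbb2-deficient libraries alone also called Sox9 (log2 fold change 1.06, edgeR adjusted p = 0.04301), where 17.2% of 6202 rows were called higher.

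Cd44, the hyaluronan receptor, had low counts with the higher values in tumors. It had 9, 8, 5, 10 and 3 counts in Erbb2-deficient tumors and 2, 2, 3, 2 and 0 in Erbb2-deficient adjacent tissue. Control tumors had 7, 3, 1, 3 and 2 counts and control adjacent tissue 2, 1, 1, 0 and 0. Of the 5 tumors, 4 in Erbb2-deficient mice and 3 in control mice lay above every adjacent library of their genotype. The mean was 5.17 ± 2.25 CPM in Erbb2-deficient tumors and 1.34 ± 0.872 CPM in Erbb2-deficient adjacent tissue (SD, n = 5 each, exact permutation p = 0.0159). It was 2.62 ± 1.5 CPM in control tumors and 0.716 ± 0.810 CPM in control adjacent tissue (SD, n = 5 each, exact permutation p = 0.0397). DESeq2 called Cd44 in Erbb2-deficient mice (log2 fold change 2.01, DESeq2 adjusted p = 0.03474) and not in control mice (1.93, DESeq2 adjusted p = 0.1635), where 8.56% and 6.78% of rows with an adjusted p were called higher. Without control tumor 2 the exact permutation p in control mice was 0.0635, and without control adjacent 4 it was 0.0952. Tumors of the 2 genotypes differed by 2.56 CPM (exact permutation p = 0.0714).

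Ephb2, the positioning receptor, showed the smallest ratio of tumor to adjacent mean among the members whose mean was higher in tumors, in each genotype. It had 11, 17, 11, 17 and 11 counts in Erbb2-deficient tumors and 8, 12, 5, 10 and 9 in Erbb2-deficient adjacent tissue. Control tumors had 16, 0, 9, 6 and 10 counts and control adjacent tissue 12, 5, 4, 1 and 9. The groups overlapped in both genotypes. The mean was 9.85 ± 2.58 CPM in Erbb2-deficient tumors and 6.42 ± 2.41 CPM in Erbb2-deficient adjacent tissue (SD, n = 5 each), with a log2 fold change estimated at 0.62 ± 0.53 (SE, adjusted p from edgeR = 0.4088). It was 6.73 ± 4.23 CPM in control tumors and 5.60 ± 4.34 CPM in control adjacent tissue (SD, n = 5 each), with a log2 fold change estimated at 0.31 ± 0.57 (SE, adjusted p from edgeR = 0.7471). Left without control tumor 2, these were 0.64 ± 0.41 in Erbb2-deficient mice and 0.61 ± 0.46 in control mice (SE), with edgeR adjusted p of 0.2397 and 0.3576.

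Between the genotypes, none of the 2 tested members passed, and edgeR called 0% of all rows in tumors, in adjacent tissue and for the interaction. At an unadjusted p under 0.05 edgeR had 817 rows in tumors, 418 in adjacent tissue and 290 for the interaction, and DESeq2 called 31 rows in tumors and 1 in adjacent tissue. In tumors, the log2 fold change of Erbb2-deficient over control was 0.31 ± 0.52 for Sox9 (SE, edgeR adjusted p = 0.8912) and 0.52 ± 0.54 for Ephb2 (SE, edgeR adjusted p = 0.7724). The fit without control tumor 2 gave 0.22 ± 0.43 for Ephb2 and a value within 0.01 of 0 for Sox9, with an SE of 0.36. In adjacent tissue it was 0.37 ± 0.58 for Sox9 (SE, edgeR adjusted p = 0.9849) and 0.21 ± 0.57 for Ephb2 (SE, edgeR adjusted p = 0.9925). The mean was higher in Erbb2-deficient than in control tumors for 5 of 6 members (not Ascl2), or 4 of 6 without control tumor 2 (neither Ascl2 nor Sox9), and in Erbb2-deficient than in control adjacent tissue for 5 of 6 (not Lgr5). The same held in tumors for 56.8% of low-count rows and 49.1% of tested rows, and in adjacent tissue for 60.8% and 51.1%. Smoc2 averaged 7.93 CPM in Erbb2-deficient tumors and 4.30 CPM in control tumors (exact permutation p = 0.198; 0.0476 without control tumor 1), and 1.67 CPM in Erbb2-deficient adjacent tissue and 1.19 CPM in control adjacent tissue (exact permutation p = 0.548). None of the 4 members outside the filter had an exact permutation p under 0.05 in adjacent tissue, beside 5.46% of the 8699 rows that were higher in Erbb2-deficient adjacent tissue. These misses do not show that the genotypes are alike, since the standard errors above leave room for differences of more than 1 log2 unit.

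**Figure D2:**
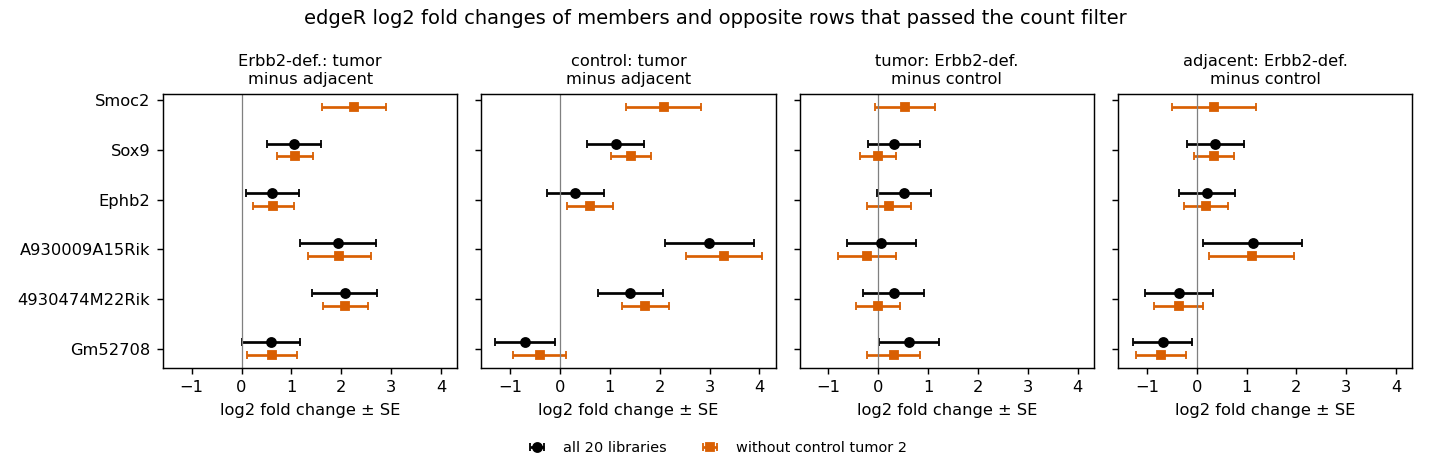
Log2 fold changes ± SE from edgeR for the members and opposite-strand rows that entered the fit, in the 4 comparisons of groups, with all 20 libraries (black circles) and without control tumor 2 (orange squares). Smoc2 entered the fit without control tumor 2 only, and in both tumor against adjacent panels the squares of Smoc2, Sox9, A930009A15Rik and 4930474M22Rik lie above 0.

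Summed over the 6 rows, CPM was 34.0 to 67.0 in Erbb2-deficient tumors and 12.7 to 25.7 in Erbb2-deficient adjacent tissue, with no overlap. The sum was 3.63 to 51.0 in control tumors and 5.38 to 23.7 in control adjacent tissue, where control tumor 2 was the lowest of all. The 4 other control tumors summed to 27.1 to 51.0 CPM, which did not overlap control adjacent tissue either. Much of the sum was Sox9 and Ephb2, at 16.0 and 9.85 CPM of a mean sum of 43.0 CPM in Erbb2-deficient tumors. How often other sums of 6 rows separate in this way was not computed, so the sums are a description and not a test. Among the members, the pair most alike was Sox9 and Ephb2, with a Pearson r of 0.801 over log2 CPM of the 20 libraries (0.939 in the 10 tumors, 0.488 in the 10 adjacent libraries), followed by Smoc2 and Sox9 (0.769; 0.85 in tumors, 0.305 in adjacent tissue). These coefficients are descriptions. Their points share library and depth, and control tumor 2, which is at 0 for all 3 rows, is among them.

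The rows whose pattern over the 20 libraries was most like that of Sox9 were Krt18, a keratin of simple epithelia (Pearson r 0.872), Krt7, a keratin of ductal epithelia (0.858), and Ly6k (0.849). Most like Ephb2 were Slc7a15 (0.882), Krt18 (0.831) and Pglyrp1, a peptidoglycan recognition protein (0.824). Over the libraries other than control tumor 2, r with Krt18 was 0.754 for Sox9 and 0.677 for Ephb2 over 19 libraries. Within adjacent tissue, r of Sox9 with Krt18 was 0.12 and with Ly6k 0.221, against 0.752 with Krt7. Krt18 averaged 61.1 ± 18.1 CPM in Erbb2-deficient tumors and 21.4 ± 9.62 CPM in Erbb2-deficient adjacent tissue, and 35.6 ± 21.6 CPM in control tumors and 18.6 ± 9.55 CPM in control adjacent tissue (SD, n = 5 each). Krt7 and Ly6k lie opposite an exon of another gene (Gm671 and Gm17189), with which their reads may be mixed.

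The opposite-strand rows inside Lgr5 and Smoc2 held more counts than the members themselves. A930009A15Rik, within an Lgr5 intron, had 15, 9, 3, 15 and 42 counts in Erbb2-deficient tumors and 1, 4, 2, 3 and 12 in Erbb2-deficient adjacent tissue. Control mice had 27, 0, 6, 17 and 21 counts in tumors and 1, 4, 1, 2 and 0 in adjacent tissue. Leaving aside control tumor 2, all control tumors were above all control adjacent libraries, and the share of rows that separate in this way was not computed. It averaged 12.3 ± 10.7 CPM in Erbb2-deficient tumors and 3.14 ± 2.86 CPM in Erbb2-deficient adjacent tissue (SD, n = 5 each), with a log2 fold change estimated at 1.94 ± 0.76 (SE, adjusted p from edgeR = 0.06358). In control mice it rose, with 11.7 ± 8.42 CPM in tumors and 1.38 ± 1.28 CPM in adjacent tissue (SD, n = 5 each) and a log2 fold change estimated at 2.998 ± 0.89 (SE, adjusted p from edgeR = 0.02014). The Lgr5 row, by contrast, had a lower mean in control tumors than in control adjacent tissue, with 2 and 3 counts in all. That call was lost with limma-voom (2.34, limma adjusted p = 0.2178), with no count filter (edgeR adjusted p = 0.06772) and without control adjacent 5 (edgeR adjusted p = 0.05324). In Erbb2-deficient mice the edgeR adjusted p was 0.01955 when control tumor 2 was left out, 0.0372 for Erbb2-deficient tumor 3 and 0.02889 for Erbb2-deficient adjacent 5. At least 10 counts were reached in Erbb2-deficient tumors 1, 4 and 5, control tumors 1, 4 and 5 and Erbb2-deficient adjacent 5. A930009A15Rik thus entered the fit mainly through tumors, and its calls are conditional on high tumor values. Of all 7119 rows, 10.7% were called higher in control tumors. The fit without control tumor 2 called 16.9% of 7516 rows higher in Erbb2-deficient tumors.

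4930474M22Rik, within Smoc2 introns and printed above, had 47, 33, 34, 27 and 71 counts in Erbb2-deficient tumors and 15, 3, 4, 13 and 18 in Erbb2-deficient adjacent tissue, without overlap. Of the 7119 tested rows, 11.9% separated in this way and edgeR called 13% higher in Erbb2-deficient tumors. It had 46, 0, 12, 34 and 58 counts in control tumors and 17, 7, 10, 4 and 15 in control adjacent tissue. In Erbb2-deficient mice the row rose in tumors, at 31.0 ± 12.6 CPM in tumors and 7.23 ± 4.18 CPM in adjacent tissue (SD, n = 5 each), with a log2 fold change estimated at 2.07 ± 0.65 (SE, adjusted p from edgeR = 0.02309). It was 24.9 ± 19.4 CPM in control tumors and 9.45 ± 5.46 CPM in control adjacent tissue (SD, n = 5 each), with a log2 fold change estimated at 1.41 ± 0.65 (SE, adjusted p from edgeR = 0.1284). Without control tumor 2 the value in control mice was 1.72 ± 0.47 (SE, edgeR adjusted p = 0.01011), where 12.9% of 7516 rows were called higher. The call in Erbb2-deficient mice was lost with limma-voom (limma adjusted p = 0.07792), with no count filter (edgeR adjusted p = 0.08853), and when Erbb2-deficient tumor 5 (edgeR adjusted p = 0.05121) or Erbb2-deficient adjacent 2 (0.05617) was left out. The difference between the genotypes in the tumor change was not called for either row (-1.06 ± 1.19 for A930009A15Rik and 0.66 ± 0.91 for 4930474M22Rik, log2 ± SE, edgeR adjusted p = 1 for both). Which strand the reads of these rows came from was not tested.

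Gm52708, inside the span of Ephb2, did not pass in either genotype (log2 fold change 0.58 ± 0.58 in Erbb2-deficient mice and -0.71 ± 0.60 in control mice, SE, edgeR adjusted p = 0.4843 and 0.431). The remaining opposite-strand rows near members, Gm52280 at Smoc2, BC006965 at Sox9, Gm23731 in Cd44 and Gm31536 at Ephb2, had 0 to 4 counts per library and did not pass the filter.

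**Figure D3:**
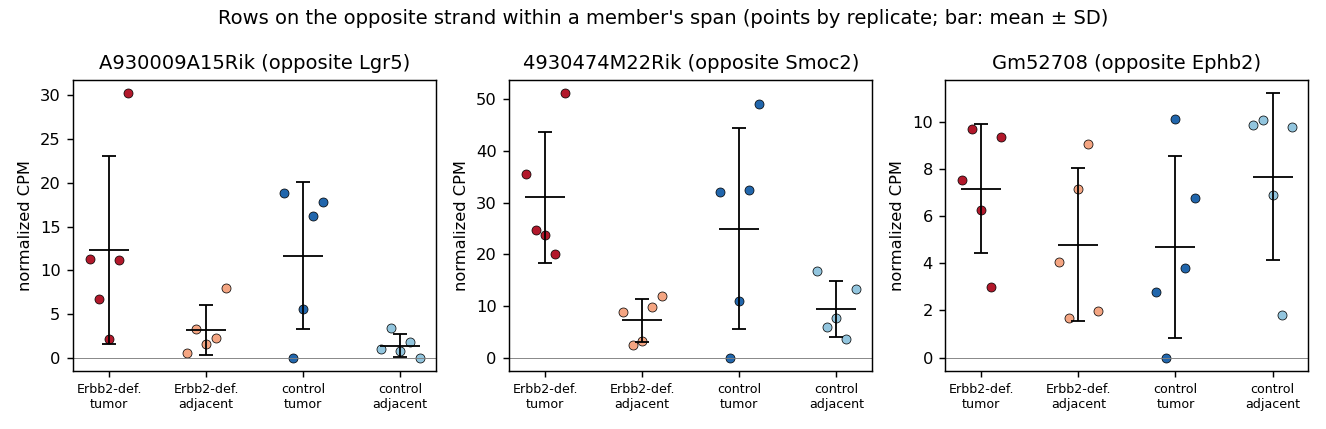
Library-size normalized counts (CPM) of the 3 opposite-strand rows that passed the count filter, with points for the 5 libraries of a group and bars for the mean ± SD. Erbb2-deficient tumors lie above all Erbb2-deficient adjacent libraries for 4930474M22Rik, as in 11.9% of tested rows, and control tumor 2 is at 0 in all 3 panels.

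Other stem and crypt progenitor genes were mostly as sparse as the members. Of 30 such genes, 11 passed the filter, and the others averaged 0 to 6.5 counts per library. In Erbb2-deficient mice 3 of the 11 were called higher in tumors and 1 lower, beside 13% and 14.5% of all 7119 rows. Their median log2 fold change was 0.42 against -0.06 over all tested rows. In control mice 2 were called higher and 1 lower, beside 10.7% and 10.9% of all rows, with a median of 0.31 against 0.07. Cd24a, a surface glycoprotein of crypt cells, averaged 18.0 ± 7.02 CPM in Erbb2-deficient tumors and 7.91 ± 2.73 CPM in Erbb2-deficient adjacent tissue (edgeR adjusted p = 0.02977), and 11.5 ± 5.01 CPM in control tumors and 2.77 ± 1.85 CPM in control adjacent tissue (SD, n = 5 each, edgeR adjusted p = 0.003988). Itga6, a laminin receptor subunit, had a log2 fold change of 1.36 ± 0.47 in Erbb2-deficient mice and 2.01 ± 0.59 in control mice (SE, edgeR adjusted p = 0.03711 and 0.01884). Ets2, a transcription factor, rose in Erbb2-deficient mice by 1.63 ± 0.43 (SE, edgeR adjusted p = 0.008247) and had 1.31 ± 0.50 in control mice (SE, edgeR adjusted p = 0.0693). Rgmb, a BMP co-receptor, fell in Erbb2-deficient mice, at 1.77 ± 2.08 CPM in tumors and 11.04 ± 3.597 CPM in adjacent tissue (SD, n = 5 each, edgeR adjusted p = 0.005116), with a log2 fold change of -0.62 ± 0.57 in control mice (SE, edgeR adjusted p = 0.4733). Zbtb38, a zinc finger protein, fell in control mice (log2 fold change -1.82 ± 0.51, SE, edgeR adjusted p = 0.01451) and had -1.28 ± 0.50 in Erbb2-deficient mice (SE, edgeR adjusted p = 0.05977). Lrig1, a stem cell marker that restrains ERBB receptors and lies opposite an exon of Slc25a26, did not pass (log2 fold change -0.13 ± 0.24 in Erbb2-deficient mice and 0.31 ± 0.25 in control mice, SE, edgeR adjusted p = 0.72 and 0.3895). The row of Olfm4 was at 0 in every library. Rows low in 1 tissue could pass the filter mainly through the other, and calls on them are conditional on high values there. Itga6 in control adjacent tissue (1.80 ± 1.54 CPM, SD, n = 5) and Rgmb in Erbb2-deficient tumors were such rows.

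Among genes of the Wnt pathway, more rows were abundant enough to be tested. Of 30 receptors, R-spondin axis and feedback genes, 18 passed the filter, 10 rose and 1 fell in tumors of Erbb2-deficient mice, and 8 rose and 1 fell in tumors of control mice, with medians of 1.09 and 0.70. Over all 7119 rows, 13% and 10.7% were called higher in tumors of Erbb2-deficient and of control mice, and 14.5% and 10.9% lower. Of the 11 tested rows that do not lie opposite another gene's exon, 5 rose in Erbb2-deficient mice and 4 in control mice, with 0 lower in either. Rows near 0 in adjacent tissue could pass the filter through tumors alone. Such calls are conditional on high tumor values and lend no support of their own. Dkk2, at 0.151 and 0.545 CPM in Erbb2-deficient and control adjacent tissue, and Nkd1 were among these rows. Nkd1, a feedback inhibitor of Wnt signalling, averaged 67.8 ± 16.3 CPM in Erbb2-deficient tumors and 1.54 ± 0.97 CPM in Erbb2-deficient adjacent tissue (edgeR adjusted p = 9.409e-05), and 35.4 ± 35.0 CPM in control tumors and 2.94 ± 1.71 CPM in control adjacent tissue (SD, n = 5 each, edgeR adjusted p = 0.002414). Dkk2, a secreted Wnt modulator, had a log2 fold change of 6.64 ± 0.93 in Erbb2-deficient mice and 4.29 ± 0.86 in control mice (SE, edgeR adjusted p = 5.483e-05 and 0.00168). Rnf43, a ligase that removes Wnt receptors, rose by 1.94 ± 0.64 in Erbb2-deficient mice and 2.53 ± 0.66 in control mice (SE, edgeR adjusted p = 0.02903 and 0.009403). Notum, a secreted Wnt deacylase, rose by 8.34 ± 1.06 in Erbb2-deficient mice and 7.07 ± 1.01 in control mice (SE, edgeR adjusted p = 1.95e-05 and 9.763e-05), but lies opposite exons of other genes, with whose reads its own cannot be told apart. Lgr4, the R-spondin receptor related to Lgr5, did not pass (log2 fold change -0.07 ± 0.51 in Erbb2-deficient mice and 0.38 ± 0.58 in control mice, SE, edgeR adjusted p = 0.9409 and 0.676). Tcf7l1, a Wnt pathway repressor, was the 1 that fell in both genotypes, and it too has a gene opposite.

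Of 14 genes of the BMP axis, which opposes stem cell identity higher in the crypt, 6 passed the filter. Bmp7, a BMP ligand, rose in both genotypes (log2 fold change 2.75 ± 0.65 in Erbb2-deficient mice and 3.47 ± 0.81 in control mice, SE, edgeR adjusted p = 0.003597 and 0.004892), and Smad7, an inhibitory SMAD, fell in Erbb2-deficient mice (-0.97 ± 0.33, SE, edgeR adjusted p = 0.03407), with a value of -0.94 ± 0.34 in control mice (SE, edgeR adjusted p = 0.05166). Of 11 Notch and early lineage genes 4 passed the filter, and Dll1, a Notch ligand with a gene opposite it, was the 1 that fell in both genotypes. Of 12 ephrins and Eph receptors, the family of Ephb2, 3 passed. Ephb6, an Eph receptor without kinase activity, rose, with 10.8 ± 4.81 CPM in Erbb2-deficient tumors and 1.22 ± 1.43 CPM in Erbb2-deficient adjacent tissue (edgeR adjusted p = 0.00522), and 6.56 ± 6.08 CPM in control tumors and 0.733 ± 0.752 CPM in control adjacent tissue (SD, n = 5 each, edgeR adjusted p = 0.01914). Efnb1, an ephrin ligand of EphB receptors, did not pass (log2 fold change -0.995 ± 0.49 and -0.32 ± 0.55, SE, edgeR adjusted p = 0.1325 in Erbb2-deficient mice and 0.7226 in control mice). Bmp7 and Ephb6 were near 0 in both adjacent groups, where the mean was at most 1.45 CPM for Bmp7 and 1.22 CPM for Ephb6. Both rows could pass the filter through tumors alone. Their calls are conditional on high tumor values and lend no support of their own. Of 20 proliferation genes 7 passed the filter, and 3 rose in Erbb2-deficient mice and 4 in control mice, with none lower. Over all 7119 rows, 13% were called higher in tumors of Erbb2-deficient mice and 10.7% in those of control mice. Without control tumor 2, 4 rose and 1 fell of 7 in each genotype, beside 16.9% and 12.9% of 7516 rows called higher. The share called lower was not computed for that fit. With all libraries, their medians were 0.77 and 0.69, whereas the summed CPM of all 20 was 1388 to 2878 in Erbb2-deficient tumors and 2631 to 6692 in Erbb2-deficient adjacent tissue, so the sum and the median differ in sign. The sum was set mainly by Plk1, which lies opposite an exon of Gm44985. Plk1 averaged 1254 ± 601 CPM in Erbb2-deficient tumors and 3989 ± 1694 CPM in Erbb2-deficient adjacent tissue (SD, n = 5 each). Ccna2 averaged 454 ± 53.1 and 265 ± 46.3 CPM in the same groups. None of these lists had a member called between the genotypes or for the interaction.

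Genes of differentiated cells went the other way. Of 7 tested colonocyte genes 5 fell in each genotype, with median log2 fold changes of -2.50 in Erbb2-deficient mice and -2.38 in control mice, and Car4, a carbonic anhydrase of surface colonocytes, averaged 1.03 ± 1.13 CPM in Erbb2-deficient tumors and 30.2 ± 12.6 CPM in Erbb2-deficient adjacent tissue, and 1.10 ± 1.99 CPM in control tumors and 16.8 ± 9.03 CPM in control adjacent tissue (SD, n = 5 each, edgeR adjusted p = 0.0001002 and 0.001158). Of 9 tested goblet cell genes 5 fell in Erbb2-deficient mice and 3 in control mice. Over all 7119 rows, 14.5% were called lower in tumors of Erbb2-deficient mice and 10.9% in tumors of control mice. Rows near 0 in tumors, as Car4 was, could pass the filter through adjacent tissue alone, so such calls are conditional on high adjacent values. Without control tumor 2, the other stem genes had 4 rows higher and 2 lower of 13 in Erbb2-deficient mice and 4 higher and 1 lower in control mice. Of 19 Wnt genes, 10 were higher and 1 lower in Erbb2-deficient mice, and 9 higher and 1 lower in control mice. Of 10 colonocyte genes, 7 were lower in Erbb2-deficient mice and 5 in control mice, with 0 higher in either. In that fit 16.9% and 12.9% of 7516 rows were called higher in tumors of Erbb2-deficient and of control mice. The share of all rows called lower in that fit was not computed.

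**Figure D4:**
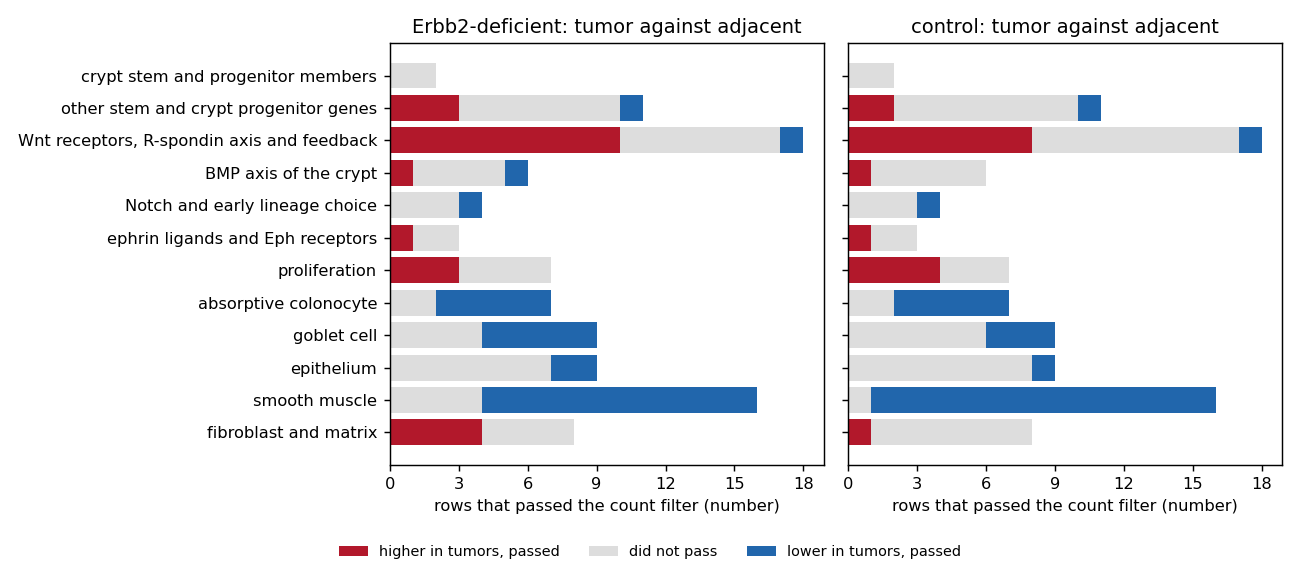
Number of rows per gene list that passed the count filter, split into those called higher in tumors, not called, and called lower in tumors (edgeR, adjusted p under 0.05), for Erbb2-deficient mice on the left and control mice on the right. The 2 tested members are not called in either panel, Wnt genes are mostly higher or not called, and colonocyte, goblet and smooth muscle genes lower or not called.

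Markers of other cells stand beside every comparison of tumor with adjacent tissue above. Smooth muscle sums separated tumors from adjacent tissue in both genotypes, whereas the other sums in this paragraph overlapped in each genotype. The 16 smooth muscle genes, all of which passed the filter, summed to 251 to 330 CPM in Erbb2-deficient tumors and 1267 to 1638 CPM in Erbb2-deficient adjacent tissue, and to 187 to 581 CPM in control tumors and 1290 to 2865 CPM in control adjacent tissue, with 12 of 16 lower in tumors of Erbb2-deficient mice and 15 of 16 in those of control mice. The adjacent tissue is labelled epithelium. The 14 fibroblast and matrix genes summed to 92.9 to 281 CPM in Erbb2-deficient tumors and 31.1 to 126 CPM in Erbb2-deficient adjacent tissue, and to 76.2 to 140 CPM in control tumors and 39.1 to 183 CPM in control adjacent tissue, with 4 of 8 tested rows higher in tumors of Erbb2-deficient mice and 1 of 8 in those of control mice. Over all 7119 rows, 13% were called higher in tumors of Erbb2-deficient mice and 10.7% in those of control mice. The shares called lower were 14.5% and 10.9%. The 10 epithelial genes summed to 369 to 686 CPM in Erbb2-deficient tumors and 366 to 794 CPM in Erbb2-deficient adjacent tissue, and to 17.2 to 572 CPM in control tumors (272 to 572 without control tumor 2) and 353 to 531 CPM in control adjacent tissue. The 16 T and B cell genes summed to 356 to 451 CPM in Erbb2-deficient tumors and 431 to 498 CPM in Erbb2-deficient adjacent tissue, and to 384 to 1112 CPM in control tumors (384 to 596 without control tumor 2) and 433 to 688 CPM in control adjacent tissue. The 12 myeloid genes, with 2 tested, and the 8 endothelial genes, with 0 tested, summed to 2.65 to 65.5 CPM per library. The part of these markers in the members' differences was not tested.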

How the data were processed

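RNA of 20 mouse libraries (4 groups of 5) was sequenced after a stranded mRNA library preparation, per the labels' protocols. The deposited files give counts per gene symbol, made by the authors; the submitters' processing notes name Trimmomatic, HISAT2 2.2.1, HTSeq 2.0.2, DESeq2 and mm39, and the strand setting is not given in the sources used here. The 5 summary rows per file, 78.6% to 85.1% of reads as no feature among them, were left out. Counts were fitted in edgeR 4.0.16 (R 4.3.3) with TMM scaling, filterByExpr at a minimum count of 10, a means model of the 4 groups and the robust quasi-likelihood F test, with Benjamini-Hochberg adjustment over 7119 rows and a threshold of 0.05; the fit was tested on simulated data. Members outside the filter were compared by exact two-sided permutation tests of mean CPM. The genes named are the members, their opposite-strand rows, the 3 tested rows most correlated with each tested member, and at most 4 tested rows of smallest p per list and genotype. Lgr4, Lrig1, Rnf43, Olfm4 and Plk1 were chosen after their values were seen. Gapdh, ND6, Erbb2, Epcam, Muc2 and Cdh1 are named outside that rule to describe the libraries. Members and lists were chosen with earlier results of these data known. Alternatives were other scalings, filters, DESeq2 1.42.0, voom in limma 3.58.1, fits on 2 groups, a replicate block, and leaving out libraries; leaving out control tumors 2 and 3 together was also run. Opposite-strand rows were taken by overlap of gene spans or a distance of at most 1000 bases, a rule chosen after seeing the data because no member had an opposite exon. No 2 libraries were duplicates (highest correlation 0.9542). Whether same-numbered libraries are from 1 mouse is not stated, and p-values measure the spread between these samples.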

Additional observations from a re-analysis of the deposited data

Results flagged for a closer look

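In control adjacent tissue Lgr5 was at 2.96 CPM (3 counts) in control adjacent 1 and at 0 in the other 4 libraries, 1 of 24 sets of values examined. With 4 libraries at 0 any single nonzero value would be singled out, and a count of 0 itself allows up to 3 counts, so the value is not shown to lie apart from the zeros.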

How the results depend on the processing

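Counting depth limits the members most, since 4 of 6 could not enter the fit. In Erbb2-deficient mice edgeR called 0 of the 2 tested members in tumors. It called 1 with no count filter (Smoc2, beside 4.06% of 27672 rows called higher) and 1 in a fit on 2 groups (Sox9, beside 17.2% of 6202). Without control tumors 2 and 3 it called 2 (Smoc2 and Sox9, beside 18.2% of 7946), and DESeq2 called 2 (Smoc2 and Cd44, beside 8.56%). In control mice Smoc2 and Sox9 were called without control tumors 2 and 3, beside 14.7% of 7946 rows. Smoc2 entered that fit through tumors alone. With 1 library left out, 0 to 2 members were called in each genotype. Over all rows, edgeR called 1959 in Erbb2-deficient mice and 2939 without control tumors 2 and 3. In control mice it called 1540, against 593 in a fit on 2 groups and 2544 without those 2 libraries. Leaving out 1 library gave 1573 to 2719 rows in Erbb2-deficient mice and 1188 to 2127 in control mice. Between the genotypes edgeR called 0 rows in tumors and DESeq2 31. In adjacent tissue edgeR called 0, and 1 with no filter, 1 with DESeq2, 1 without control tumors 2 and 3 and 0 to 2 with 1 library left out. Of the 4 members outside the filter, those with an exact permutation p under 0.05 numbered 2 to 4 in Erbb2-deficient mice, 0 to 2 in control mice and 0 to 2 between the tumors with 1 library left out, 1 (Cd44) in control mice with no filter, and 0 between the tumors without control tumors 2 and 3.

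Of the values of single rows under the alternatives, 1044 kept their direction and side of the threshold, 37 lost a call, 16 gained one and 33 changed sign. Signs turned only where the value was not called, and the cause was not tested. The Sox9 interaction was 0.0084 with library totals alone, 0.58 with voom and 0.12 with the replicate block, and -0.36 to 0.29 with 1 library left out. Between the tumors Ascl2 differed by 0.245 CPM with library totals alone and 0.000877 CPM at a minimum count of 30 (-0.389 to 0.408 with 1 library left out), A930009A15Rik by -0.0667 (log2) with the replicate block and -0.48 without control tumors 2 and 3 (-0.59 to 0.35), 4930474M22Rik by -0.25 without those 2 and Sox9 by -0.0083 to 0.52. With 1 library left out, Ephb2 was -0.0834 to 0.63 between the adjacent groups and -0.11 to 0.61 for the interaction, Ascl2 -0.150 to 0.415 CPM and Lgr5 -0.452 to 0.299 CPM between the adjacent groups, and Lgr5 -0.442 to 0.308 CPM in control tumors over adjacent tissue.

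These values do not settle whether the numbers pair the libraries. Of 10 same-numbered pairs, 5 had correlated deviations over 0.1 (-0.203 to 0.469, with 0.414 for control 1 and 0.469 for control 3). Of 10 tumors, 4 were most like the adjacent library of their number. With the replicate block Sox9 had 1.05 (edgeR adjusted p = 0.1805) in Erbb2-deficient mice and 0.93 (edgeR adjusted p = 0.3205) in control mice, and the block changed no member's call.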
